A study of Homo sapiens with 8 samples.

Results

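The genes described here are 9 short-lived growth regulators, the transcription factors MYC, MYCN, JUN, JUNB, JUND, FOS and EGR1 and the immediate early response genes IER2 and IER3, followed across amino acid starvations in ribosome profiling data. They were chosen by name and looked up by gene symbol, and 7 of the 9 were listed in at least 1 library, out of 12235 genes listed in all. No identifier in the tables matched any of the 15 transcripts of MYC or the 3 of MYCN in GENCODE release 44. Between 67 and 345 identifiers per library are absent from that release and keep no gene name, so MYC and MYCN are not analysed here and nothing follows about their translation.

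Ribosome profiling sequences the mRNA fragments that ribosomes protect from a nuclease, and the number of fragments on a coding sequence reflects how many ribosomes sat on it. The cells were HEK293T, an established human embryonic kidney line carrying SV40 large T antigen, kept overnight in complete medium (Suff) or in medium without arginine (Arg-), leucine (Leu-) or methionine (Met-). All media were built on the same custom base and dialyzed serum. Each of these 4 conditions was profiled once after cycloheximide, a drug that arrests elongating ribosomes, and once without this pre-treatment, which gave 8 libraries and no replicates. No p-value is therefore given, and all intervals below cover the counting of reads only, without molecular identifiers, and not the variation between cultures. No mRNA levels were measured alongside, so a change in mRNA amount, in ribosomes per mRNA or in the share of cells expressing a gene cannot be told apart.

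Immediate-early genes are transcribed within minutes of a growth factor or stress signal, without new protein synthesis, and their mRNAs and proteins are soon degraded. JUN, JUNB and JUND pair with each other or with FOS to form the dimeric factor AP-1, in which JUN is the subunit activated by the stress kinase JNK. EGR1 is a zinc finger factor induced through the MAP kinase ERK and serum response factor. MYC and MYCN pair with MAX to drive genes of ribosome production and growth, while IER2 and IER3 are small induced proteins that act in growth and survival.

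Ribosome density around the start codon was a question of the study, so the 24 bases around the annotated start of each listed gene are shown, with 9 bases before the start codon and the codon itself in capitals. They were read from GENCODE release 44 transcripts on GRCh38, and in each gene the stretch lies within 1 exon.
JUN (ENST00000371222, chr1:58783056-58783079, minus strand): gactgttctATGactgcaaagatg
JUNB (ENST00000302754, chr19:12791763-12791786, plus strand): gccgcccggATGtgcactaaaatg
JUND (ENST00000252818, chr19:18281470-18281493, minus strand): aggcggaggATGgaaacacccttc
FOS (ENST00000303562, chr14:75278974-75278997, plus strand): accgccacgATGatgttctcgggc
EGR1 (ENST00000239938, chr5:138465753-138465776, plus strand): tcgtccaggATGgccgcggccaag
IER2 (ENST00000588173, chr19:13153178-13153201, plus strand): cgagtcgccATGgaagtgcagaaa
IER3 (ENST00000259874, chr6:30744504-30744527, minus strand): cggctcaccATGtgtcactctcgc
A purine at position -3, counted back from the A of the start codon, and a G at position 4, just after the codon, are the bases known to favour start recognition. Of 7182 transcripts measured without cycloheximide, 86.4% carried A or G at -3 and 47.5% carried both features. JUN has T at -3 and JUNB has C there, whereas the other 5 genes have a purine, and JUND, EGR1 and IER2 also have the G. These are descriptions of the annotated sequence, and their part in the values below was not tested.

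The deposited values are RPKM, the reads on a coding sequence scaled by its length and by the reads on all coding sequences of the library. The libraries held 538222 (Met-) to 6434043 (Leu-) such reads with cycloheximide and 1302523 (Met-) to 3139745 (Suff) without it. No gene was listed under 64 reads with cycloheximide or under 5 without it, so a gene that is not listed is taken to have had at most about that number. This need not hold for each gene. Of 396 genes that the other libraries placed at least 2-fold above this floor in Met- with cycloheximide, 60 were not listed. In Arg- with cycloheximide 14 of 1789 were not, and in Leu- 0 of 1752. Of the known markers of the line, KRT18, VIM, NEFM, NEFL, INA, KRT8 and LHX1 were listed in all 4 libraries without cycloheximide and PAX2 in 2 of them, while PTPRC, HBB, CD3E and ALB, markers of blood and liver, were listed in none.

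JUN was higher in every starved library than in the sufficient library of its series, and had the highest footprint density of the 7 genes in 6 of the 8 libraries. The exceptions were Suff with cycloheximide, where JUND was higher, and Met- with cycloheximide, where IER2 was. The 3 comparisons of a series share 1 Suff library and are not independent of each other. Without cycloheximide its RPKM was 99.8 in Suff (95% Poisson interval 89 to 111), 237 in Leu- (213 to 264), 426 in Met- (391 to 463) and 638 in Arg- (600 to 679). No neighbours in this order overlapped in their counting intervals. Among all genes listed, JUN stood at rank 1859 of 11437 in Suff and at rank 258 of 10974 in Arg-. The fold over sufficient medium was 6.34 in Arg-, 4.24 in Met- and 2.37 in Leu-, taken as the ratio of RPKM + 1, which understates changes of low genes. On the log2 scale these were 2.67 (interval 2.48 to 2.85), 2.08 (1.88 to 2.29) and 1.24 (1.02 to 1.47).

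With cycloheximide the RPKM of JUN was 64.9 in Suff (55.4 to 75.6), 101 in Leu- (93 to 109), 265 in Arg- (250 to 279) and 367 in Met- (317 to 422). Again no neighbours overlapped, but Met- rather than Arg- was the highest. The folds were 5.58 in Met-, 4.03 in Arg- and 1.54 in Leu-, so that Leu- stayed under 2-fold in this series. On the log2 scale the differences were 2.48 (2.18 to 2.78), 2.01 (1.78 to 2.25) and 0.63 (0.38 to 0.88). The lowest of the 3 starvations was thus Leu- in both series.

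**Figure D1:**
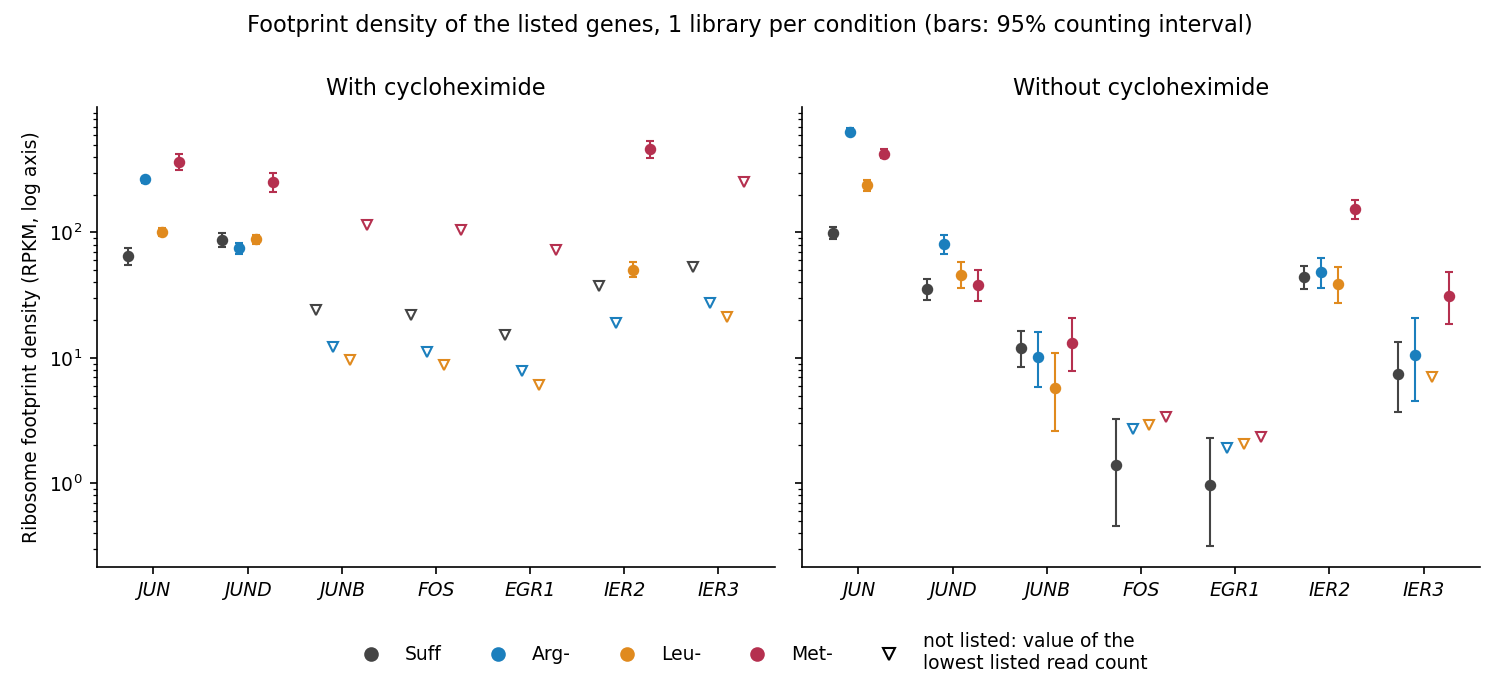
Footprint density (RPKM, log axis) of the 7 listed genes in each library with cycloheximide (left) and without it (right), where points are single libraries coloured by medium, bars are 95% Poisson intervals for read counting, and open triangles give the RPKM that the lowest listed read count would have where a gene was not listed. JUN lies above its Suff point in every starved library, IER2 stands out in Met-, and FOS and EGR1 sit at the lower end in Suff without cycloheximide.

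JUND, the most stable member of the JUN group, had a different order. Without cycloheximide its RPKM was 35.4 in Suff (29.2 to 42.4), 38.2 in Met- (28.6 to 50.1), 46.1 in Leu- (36 to 58) and 80.9 in Arg- (67.9 to 95.7). Only the step from Leu- to Arg- lay beyond the counting intervals, and the log2 difference of Arg- from Suff was 1.17 (0.81 to 1.53), a fold of 2.25. With cycloheximide it was 74.8 in Arg- (67.5 to 82.6), 87 in Suff (76.2 to 99), 88.1 in Leu- (81.1 to 95.5) and 252 in Met- (212 to 297). Here Met- stood apart from the rest, 2.87-fold over Suff with a log2 difference of 1.52 (1.21 to 1.83), whereas Arg- differed by -0.22 (-0.45 to 0.02). The starvation in which JUND was high therefore differed between the series, and this difference was not tested.

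JUNB, a partner that often restrains JUN, was low. Without cycloheximide it had 39 reads in Suff, 17 in Arg-, 9 in Leu- and 18 in Met-, or an RPKM of 11.9 (8.46 to 16.3), 10.1 (5.89 to 16.2), 5.76 (2.63 to 10.9) and 13.2 (7.85 to 20.9) in that order. All neighbours overlapped, and the log2 difference from Suff was -0.22 in Arg- (-1.04 to 0.57), -0.93 in Leu- (-1.93 to 0.02) and 0.14 in Met- (-0.68 to 0.92). With cycloheximide it was not listed in any library, where 64 reads correspond to an RPKM of 9.56 in Leu- and 114 in Met-. A difference of the size seen for JUN was thus outside the interval of JUNB in each of the 3 starvations without cycloheximide.

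FOS and EGR1, the classical serum-induced members, were each listed in 1 library only, Suff without cycloheximide, with 5 reads apiece. This gave an RPKM of 1.39 for FOS (0.452 to 3.25) and 0.976 for EGR1 (0.317 to 2.28). In the starved libraries 5 reads correspond to 2.72 to 3.36 RPKM for FOS and 1.9 to 2.35 for EGR1, values above those in Suff. Their absence there was therefore not a detectable change at this depth, and no fold is given.

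IER2 and IER3 were highest in Met-. Without cycloheximide the RPKM of IER2 was 44.1 in Suff (35.6 to 54), 48 in Arg- (35.9 to 63), 38.8 in Leu- (27.6 to 53) and 153 in Met- (128 to 181). The first 3 overlapped and Met- stood above them, 3.42-fold over Suff with a log2 difference of 1.77 (1.39 to 2.16), against 0.12 in Arg- (-0.39 to 0.62) and -0.18 in Leu- (-0.74 to 0.36). With cycloheximide IER2 was listed in Leu-, at 50.6 (44.1 to 57.8), and in Met- at 461 (394 to 537). It was not listed in Suff and Arg-, where 64 reads correspond to 37.4 and 19.1 RPKM. Against that floor over the 1 Suff library, the lower end of the counting interval of IER2, both with 1 RPKM added, was at least 10.3-fold higher in Met- and at least 1.18-fold higher in Leu-. Relative to the median of all genes in these comparisons, which in Met- itself depends on the floor, these bounds were 5.55-fold and 1.16-fold. This bound rests on the floor of the table: of 1462 genes that the other libraries placed at least 2-fold above it in Suff, 27 were not listed.

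IER3 had few reads, 11 in Suff, 8 in Arg- and 19 in Met- without cycloheximide, and was not listed in Leu- or in any library with cycloheximide. Its RPKM was 7.44 in Suff (3.71 to 13.3), 10.5 in Arg- (4.55 to 20.8) and 31 in Met- (18.6 to 48.4), while 5 reads in Leu- correspond to 7.09. Met- was 3.79-fold over Suff, a log2 difference of 1.92 (0.86 to 2.99), and its interval overlapped that of Arg-. The Arg- difference of 0.45 had an interval from -0.89 to 1.73, so no difference was detectable there at this depth.

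To read these differences against the libraries as a whole, a gene was called where it was listed in both libraries of a pair with a mean RPKM of at least 10 and differed at least 2-fold. Without cycloheximide 4 of the 9 genes passed this filter in Arg-, 3 in Leu- and 5 in Met-, and with cycloheximide only JUN and JUND did. Without cycloheximide the called genes were JUN and JUND of the 4 in Arg- (higher), against 8.23% of 7448 genes tested. In Leu- it was JUN of the 3, against 6.85% of 7558, and in Met- JUN, IER2 and IER3 of the 5, against 20.2% of 7884. IER3 (7.44 RPKM in Suff) passed the filter only through its level in Met- and JUNB left it in Leu- through its low level there, so these counts and the medians below are descriptions and support nothing. With the filter set on Suff alone, 2 of 4 were higher in Met-, JUN and IER2, against 14.7% of 7165 genes. None was called lower, against 5.95% in Arg-, 2.06% in Leu- and 5.34% in Met-. With cycloheximide JUN was called higher in Arg- (16.6% of 5074 genes), neither gene in Leu- (12.1% of 5208), and both in Met- (46.7% of 1890). No member was called lower there either, against 19.7% in Arg-, 7.28% in Leu- and 9.79% in Met-. In Met- with cycloheximide calls were so common among all genes that the count of members there is not read as a result.

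The log2 difference of JUN exceeded that of 99.7% of genes tested in Arg-, 98.4% in Met- and 96.5% in Leu- without cycloheximide. With cycloheximide these shares were 96.7%, 91.7% and 76.8% in that order. For IER2 and IER3 the shares in Met- without cycloheximide were 96.4% and 97.5%, and for JUND 94.6% in Arg- but 39.4% in Met-. The median over the members that passed, beside that of all genes, was 0.65 against -0.02 in Arg-, 0.37 against 0.14 in Leu- and 1.77 against 0.32 in Met- without cycloheximide. With the filter on Suff alone it was 0.65 against -0.08, 0.10 against 0.10 and 0.96 against 0.22, so the median of the members in Leu- was that of all genes. With cycloheximide and the filter on the mean RPKM of the pair, the median of JUN and JUND was 0.90 against -0.23 in Arg-. It was 0.32 against 0.02 in Leu- and 2.0 against 0.89 in Met-.

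**Figure D2:**
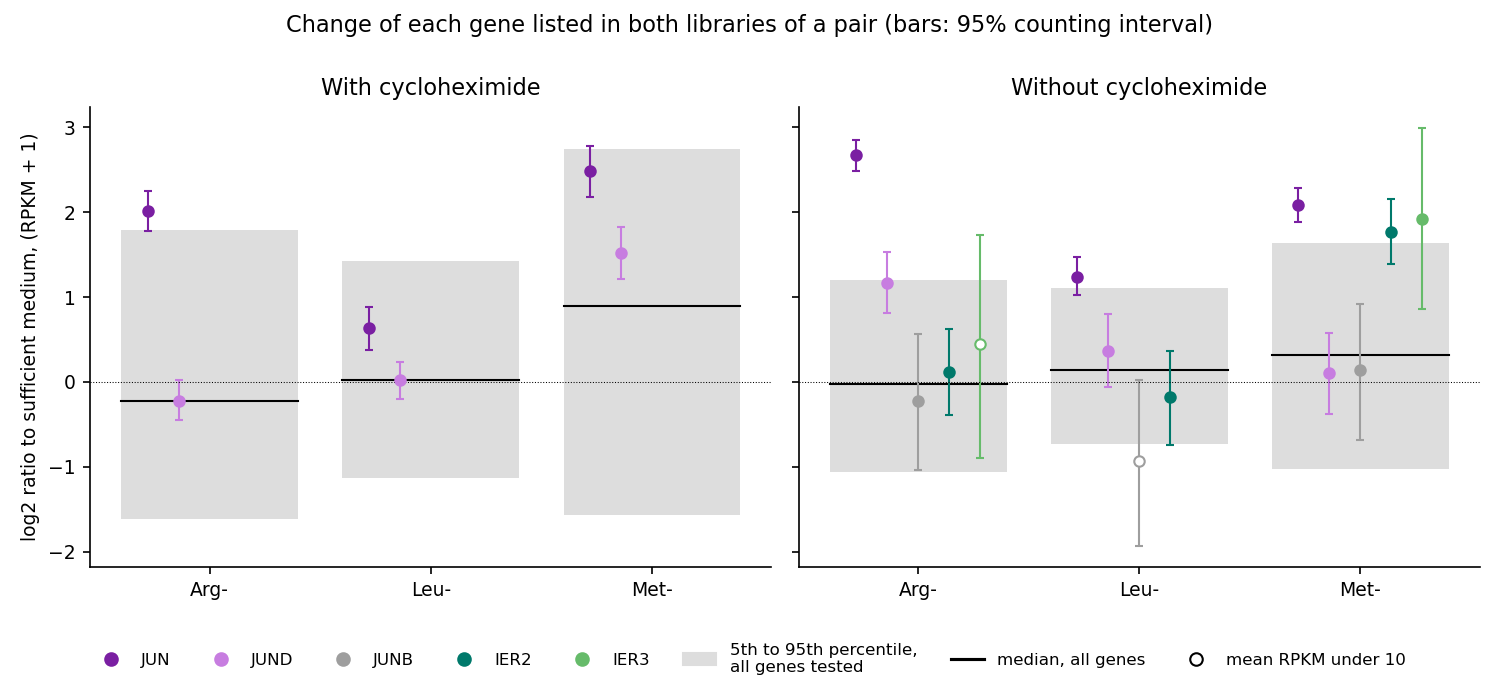
Log2 ratio of RPKM + 1 to sufficient medium for each gene listed in both libraries of a pair, with cycloheximide (left) and without it (right), where bars are 95% counting intervals, grey boxes span the 5th to 95th percentile of all genes tested, black lines are their median and open points had a mean RPKM under 10. JUN lies above the box in Arg- in both series and in Leu- and Met- without cycloheximide, and JUND and JUNB lie near the median in Met- without cycloheximide.

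RPKM is a share of each library, and the median of all genes was itself shifted by over 0.1 in 4 of the 6 comparisons. Relative to that median the log2 difference of JUN was 2.24 in Arg- and 1.59 in Met- with cycloheximide and 1.10 in Leu- and 1.77 in Met- without it. JUND in Met- with cycloheximide was 0.63 relative to the median and no longer past 2-fold, and IER2 and IER3 in Met- without it were 1.46 and 1.61. The share of calls that were higher was 79.1% in Met- without cycloheximide and 50.2% after centring on the median. It was 76.9% and 56.5% in Leu- without it, 82.7% and 47.5% in Met- with it, and 45.7% and 63.4% in Arg- with it. The signs of JUND and JUNB in Met- without cycloheximide and of JUND in Arg- with it turned with the centring.

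Gene structure was not used in the choice by name. JUN, JUNB, JUND and IER2 are each annotated as 1 exon in the transcript listed, against 2.32% of 7321 transcripts compared, while EGR1 and IER3 have 2 and FOS has 4. The pentamer ATTTA of AU-rich decay elements, searched on the mRNA strand, occurs in the annotated 3′ UTR of 6 of the 7 genes (all but IER2, from 1 in JUND and EGR1 to 6 in IER3), a share near the 68.6% of 7267 transcripts that hold it. The longer element TTATTTATT occurs in FOS alone, against 7.11% of transcripts. The proteins differ in the starved residues: methionine makes up 3.32% of JUN, 3.14% of IER2, 1.92% of IER3, 1.44% of JUNB and 1.15% of JUND, where the median was 2.22%. Arginine makes up 8.97% of IER2, 8.33% of IER3, 4.23% of JUN and 4.03% of JUND, against a median of 5.62%, and leucine ranges from 5.71% in EGR1 to 11% in JUND around a median of 9.73%. JUN, high in all 3 starvations, was above the median in methionine and in leucine (10.6%) and below it in arginine. Whether residue content bears on the values was not tested.

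Over the 3 comparisons without cycloheximide, the genes closest to JUN among 7182 were SMG9, APBB3 and AARS1, with a largest difference of 0.48, 0.53 and 0.57 in any comparison. AARS1 is the cytosolic alanyl-tRNA synthetase. The closest to IER2 were NOCT, FBXL18 and RBM12, within 0.08, 0.16 and 0.17, and the closest to JUND were SCFD1, LTA4H and KLF9, within 0.12, 0.15 and 0.15. Over all 6 comparisons and 1759 genes, PMAIP1, HADHA and EEF1G were closest to JUN, within 0.88, 1.13 and 1.20, so even the closest gene differed from JUN by 0.88 in at least 1 comparison. DEAF1, PRR14 and COQ4 were closest to JUND in that comparison, within 0.43, 0.46 and 0.53. For JUND and IER2 the differences over the 3 comparisons were smaller than the counting error of the member itself, while those from JUN were larger than its counting error.

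Of 12 other AP-1 partners 8 were listed. Without cycloheximide ATF3, a stress-induced bZIP factor, was higher in the same starvations as JUN. Its RPKM without cycloheximide was 47.8 in Suff, 434 in Arg-, 228 in Leu- and 107 in Met-, log2 differences of 3.16 (2.81 to 3.51), 2.23 (1.85 to 2.61) and 1.14 (0.68 to 1.60). It was the only partner of 5 tested called higher in Arg- and in Leu-, against 8.23% and 6.85% of all genes. In Met- 3 of 6 were, against 20.2%, ATF3 together with the small MAF protein MAFG (1.35, 0.65 to 2.05) and JDP2 (1.77), which passed the filter in Met- only. Relative to the median of all genes ATF3 in Met- was 0.83 and no longer called. No partner was called lower without cycloheximide, though 1 was in Leu- after centring, as were 260 of 7558 genes tested. ATF2 differed by 0.04, 0.08 and -0.01 in Arg-, Leu- and Met-, and MAFK by -0.18, -0.92 and 0.11. With cycloheximide ATF3 differed by 3.92 (3.62 to 4.22) in Arg- and 2.17 (1.87 to 2.48) in Leu-. It was not listed in Met- with cycloheximide, where no partner was tested.

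Of 40 other immediate-early genes 34 were listed. Of 20 tested without cycloheximide, 10 were called higher in Met- and 1 lower, against 20.2% and 5.34% of all genes, with a median of 0.98 beside 0.32. Relative to that median 6 were past 2-fold higher, as were 846 of 7884 genes tested. HES1 (0.82) and NAB2 (0.89) were among those of the list that no longer were. In Arg- 4 of 19 were higher and 3 lower, against 8.23% and 5.95%, and in Leu- 1 was higher and 2 lower, against 6.85% and 2.06%. CCN1 (2.35), 1 of the 4 in Arg-, passed the filter there only. With the filter on Suff alone 3 were higher in Arg-, against 5.92% of all genes. Calls were also most common among all genes in Met-, so nothing particular to the list is read from its higher count there. DUSP1, a phosphatase that inactivates MAP kinases, had an RPKM of 28 in Suff, 116 in Arg-, 50.2 in Leu- and 157 in Met-, and log2 differences of 2.01, 0.82 and 2.45. KLF10, a zinc finger repressor, differed by 1.53, 1.55 and 1.83 and HES1, a Notch target, by 1.37, 0.96 and 1.13. RHOB, a small GTPase, differed by 0.55, 0.60 and 1.53.

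BTG2, an antiproliferative gene, was past 2-fold lower in all 3 starvations without cycloheximide. Its differences were -1.24 (-2.1 to -0.45) in Arg-, -1.14 (-2.0 to -0.35) in Leu- and -1.98 (-3.18 to -0.93) in Met-. Each of these intervals reached inside 2-fold. After cycloheximide BTG2 differed by -1.24 in Arg- and -0.98 in Leu- and was not listed in Met-. NAB2, the co-repressor of EGR1, was listed only without cycloheximide and was split, at -1.76 in Arg-, -1.09 in Leu- and 1.20 in Met-. The helix-loop-helix inhibitors ID2 and ID3 differed without cycloheximide by -0.06 and -0.05 in Arg-, 0.52 and -0.15 in Leu- and 0.56 and 0.91 in Met-. MCL1, a short-lived survival protein, differed by -0.03, -0.10 and 0.28 in the same series. After cycloheximide MCL1 differed by 0.30 in Arg-, 0.83 in Leu- and 1.90 in Met-. ID3 differed there by -0.99, -0.66 and 1.34, and ID2 by -0.44, 0.09 and -1.09. Relative to the median of all genes, the Met- values of MCL1, ID3 and ID2 there were 1.01, 0.45 and -1.98. With cycloheximide 5 of 6 genes tested in Met- were called higher and 1 lower, where 46.7% and 9.79% of all genes were, so this count is not read as a result. Of 11 tested there in Arg- 0 were higher and 2 lower, against 16.6% and 19.7%, and in Leu- 0 were called in either direction, against 12.1% and 7.28%.

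Of the 20 upstream kinases and serum response factors 19 were listed. Of 16 tested without cycloheximide, 3 were lower in Arg- and 0 higher, against 5.95% and 8.23% of all genes. In Met- 1 was higher and 1 lower, against 20.2% and 5.34%, and none was called in Leu-. After centring, 0 were higher and 2 lower in Met-, where 846 and 840 of 7884 genes tested were. MAPK3, a kinase of the growth factor pathway, differed by -0.04 in Arg-, 0.03 in Leu- and 0.21 in Met-. MAP2K2, which activates it, differed by -1.03, -0.46 and -1.0, whereas MAP2K1 differed by -0.69, 0.16 and 0.19. Of 13 tested with cycloheximide in Arg-, 1 was higher and 2 lower, against 16.6% and 19.7% of all genes. Of 13 in Leu-, 0 were higher and 1 was lower, against 12.1% and 7.28%. Of 2 in Met-, 0 were called in either direction, against 46.7% and 9.79%.

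For the MYC side of the group, its partners and regulators of turnover gave 0 calls higher in all 6 comparisons. Between 3 and 11 genes were tested in each, where the share of all genes called higher ran from 6.85% to 46.7%. Without cycloheximide 1 of 11 was lower in Arg-, against 5.95% of all genes. It was the ubiquitin ligase subunit SKP2 (-1.37), for which no reads could be recovered and no interval is given. In Leu- 0 of 10 and in Met- 0 of 11 were called in either direction, where 2.06% and 5.34% of all genes were lower. MAX, the obligate partner, differed by -0.33 (-0.69 to 0.02), -0.19 (-0.55 to 0.16) and 0.59 (0.28 to 0.90). The repressor MXD4 differed by 0.39, 0.54 and -0.27. With cycloheximide 4 of 8 were lower in Arg-, MAX (-1.74) and SKP2 (-1.18) among them, against 19.7% of all genes. After centring 2 of the 8 were, as were 630 of 5074 genes tested, and SKP2 was at -0.95.

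Of 18 textbook MYC targets, 15 were tested without cycloheximide, with medians of -0.69 in Arg-, -0.33 in Leu- and -0.46 in Met- beside -0.02, 0.14 and 0.32 for all genes. Called lower were 5 in Arg-, 1 in Leu- and 3 in Met-, against 5.95%, 2.06% and 5.34% of all genes, and called higher 1, 0 and 2, against 8.23%, 6.85% and 20.2%. After centring, 7 were lower and 1 higher in Met-, where 840 and 846 of 7884 genes tested were. PTMA, prothymosin alpha, differed by -2.28, -0.70 and -1.86 and NPM1, nucleophosmin, by -1.22, -0.57 and -2.42. CAD, the enzyme that starts pyrimidine synthesis, was at -1.13, -1.01 and -1.26, and the nucleolar methyltransferase FBL at -0.69, -0.33 and -0.79. In the other direction were the helicase DDX18, at 1.37, 0.99 and 1.05, and nucleolin, NCL, at 0.42, 0.88 and 0.88. The other target called higher in Met- was POLR1B, at 0.66, 0.39 and 1.95. Relative to the median of all genes POLR1B in Met- was 1.63 and DDX18 was 0.74, no longer past 2-fold. With cycloheximide the list gave 7 of 16 called higher and 2 lower in Arg-, with a median of 0.39 beside -0.23 for all genes. In Leu- 6 of 16 were higher and 2 lower, and in Met- 4 of 12 and 2. After centring, 2 were higher and 3 lower in Met-, where 393 and 434 of 1890 genes tested were. Before centring, the all-gene shares higher were 16.6%, 12.1% and 46.7% in Arg-, Leu- and Met-, and those lower 19.7%, 7.28% and 9.79%. The difference between the series was not tested. NPM1 and PTMA have near-identical processed copies in the genome, so values from uniquely mapped reads are uncertain for them.

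**Figure D3:**
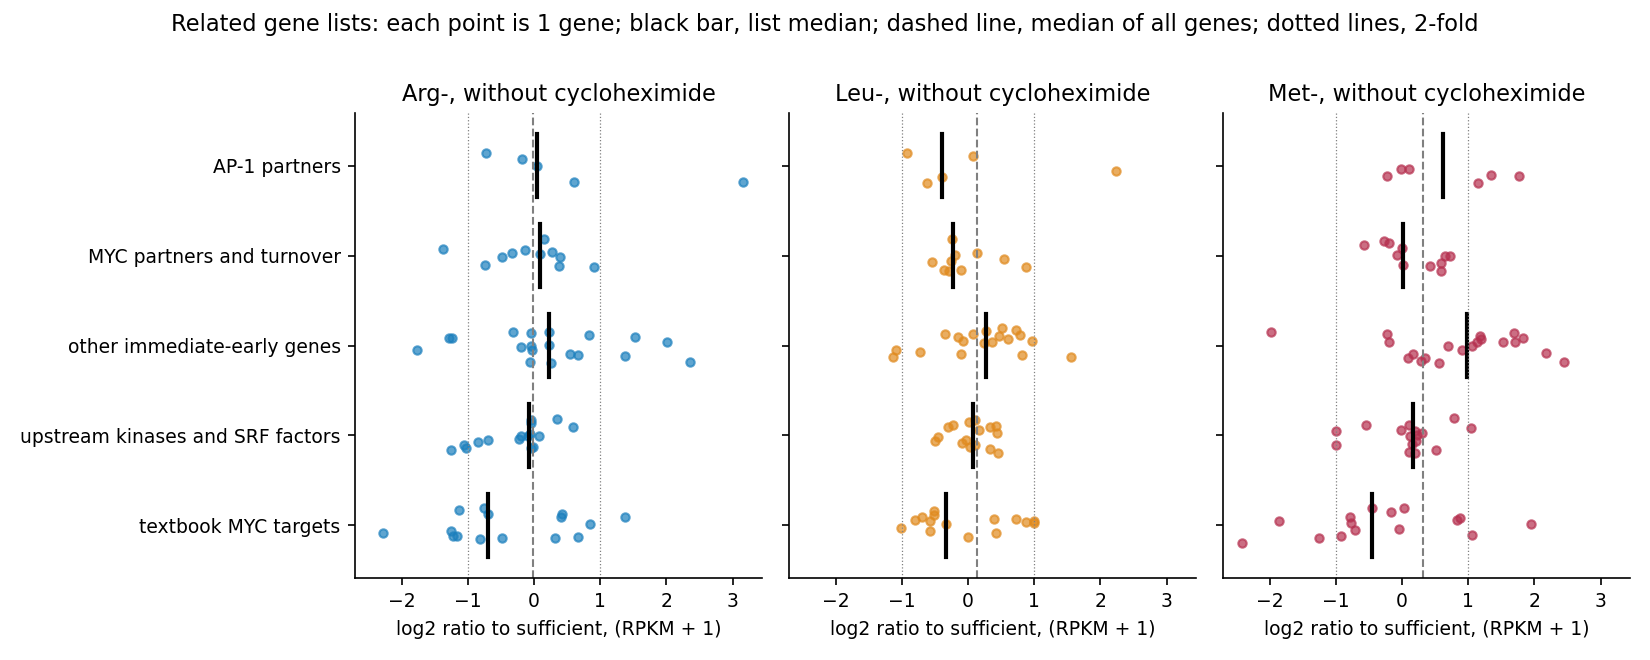
Log2 ratio of RPKM + 1 to sufficient medium without cycloheximide (x axis) for the genes of 5 related lists (rows) in Arg-, Leu- and Met-, where each point is 1 gene with a mean RPKM of at least 10, black bars are list medians, the dashed line is the median of all genes and dotted lines mark 2-fold. The other immediate-early genes spread to the right in Met- (median 0.98), and the MYC targets lie left of the dashed line by their medians in all 3 panels.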

How the data were processed

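Ribosome-protected fragments of HEK293T cells were profiled in 8 libraries. The authors trimmed adaptors, kept reads of 25 to 35 nt, quality-trimmed them with Trimmomatic, aligned them to the human transcriptome (GRCh38) with Bowtie without mismatch and kept unique hits; versions and the annotation release are not given in the sources used here. The submitters' processing notes also name cutadapt. The deposited tables give 1 RPKM for each Ensembl transcript. By their names, duplicate reads were removed in the tables without cycloheximide, which can lower dense genes most, and the other tables bear no such mark, so processing and drug cannot be told apart between the series.

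Transcripts were named through GENCODE release 44, which held 96.7% to 97.1% of them, and the highest transcript per gene and library was kept. Reads were recovered from the steps of RPKM multiplied by coding length; 97.1% to 97.4% of values were whole within 0.01 of a read. Ratios are log2 of RPKM + 1. A gene not listed in 1 library of a pair was left out, since the floor of the tables makes 0 a poor value for it. With 1 library per condition no test was made. Intervals at 95% are exact Poisson for a level and exact binomial for a ratio. The genes and lists were chosen with earlier results of these data known. Named from each related list were its 4 most abundant genes without cycloheximide and those called in 1 direction in at least 2 starvations there. For likeness, the 3 genes with the smallest largest log2 difference were named. Some genes that this rule names are not reported here. JDP2, CCN1 and POLR1B were named after their values were seen. Alternatives were another pseudocount, no or a stricter filter, a filter on the Suff library alone (chosen after seeing the data), genes not listed set to 0, centring on the median and other ways to combine transcripts. Scripts were tested on simulated data. Intervals came from scipy 1.17.1, sequences from biopython 1.88, figures from matplotlib 3.10.9 and tables from pandas 2.3.3 and numpy 2.4.6 under Python 3.11.15.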

Additional observations from a re-analysis of the deposited data

Results flagged for a closer look

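Some genes lay on opposite sides of sufficient medium with and without cycloheximide, with both counting intervals away from 0 and at least 1 of the differences past 2-fold. JUN and JUND, the members with a ratio in both series, were not among them, and the other 7 could not be compared. NPM1 differed by 1.47 with cycloheximide and -1.22 without it in Arg-, by 2.02 and -0.57 in Leu-, and by 0.26 and -2.42 in Met-, on the log2 scale. In Met-, ID2 differed by -1.09 with cycloheximide and 0.56 without it, MAP2K2 by 0.44 and -1.0, and VIM, a marker of the line, by 1.11 and -0.89. Relative to the median of all genes, MAP2K2 (-0.45) and NPM1 (-0.63) in Met- with cycloheximide lay below 0, on the same side as without it. With 1 library per condition these differences between the series were not tested.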

How the results depend on the processing

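Values of single members were checked under another pseudocount, centring and the other ways to combine transcripts. The filters and the setting for genes not listed leave such a value unchanged. Each member had the same highest transcript in all libraries that listed it, so taking the transcript of Suff could not move it. Of 80 such values 77 stayed within their counting interval, and none past 2-fold turned its sign. The 3 outside it were JUN in Met- in both series (1.59 with and 1.77 without cycloheximide) and JUND in Met- with it (0.63), all after centring. The 80 values include those of the Suff transcript, which could not move, so the share that stayed is no measure of stability. Centring shifted values by at most 0.89 and so could not turn the sign of one past 2-fold. Under all 8 alternatives, 94 of 96 counts of called members stayed within 1.5 times. Among these, the counts called lower were 0 throughout, and a fall from 3 to 2 is within 1.5 times. The share of counts that stayed is therefore not read as a sign of stability. With genes not listed in 1 library of a pair set to 0, 1 member in place of 0 was called higher in Leu- with cycloheximide and the median became 0.63, while the median in Met- became 2.48. This setting called 2973 genes lower in Met- with cycloheximide in place of 185, since most genes are under the floor of that library. It also called 1851 genes higher in Arg- and 1638 in Leu- with cycloheximide, in place of 844 and 629. Centring on the median left 1 of the members called higher in Met- with cycloheximide in place of 2, with a median of 1.11. It gave 393 higher and 434 lower genes there, 846 and 840 in Met- without cycloheximide in place of 1594 and 421, 338 and 260 in Leu- without it in place of 518 and 156, and 630 lower in Arg- with it in place of 1001. A minimum mean RPKM of 50, which tests fewer members, raised the median to 1.92 in Arg- and 1.24 in Leu- without cycloheximide. Without cycloheximide it left 173, 148 and 382 genes called higher in Arg-, Leu- and Met- and 264 and 92 lower in Arg- and Leu-; with it, 471 and 386 were higher in Arg- and Leu-. With the filter on the Suff library alone, an alternative added after seeing the data, the median of the members in Met- without cycloheximide became 0.96 and 1053 genes were called higher there. With no filter, 991 and 860 genes were higher in Arg- and Leu- without cycloheximide, in place of 613 and 518. Depth limits FOS, EGR1, JUNB and IER3 most, and with cycloheximide the Met- library holds the fewest reads.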

Other observations

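Beside DUSP1, KLF10, HES1, RHOB and NAB2, the immediate-early genes called higher in Met- without cycloheximide were GADD45B (2.18), ID1 (1.71), IER5L (1.69), TRIB1 (1.18) and IER5 (1.05), named here after their values were seen. IER5L passed the filter in Met- only, and relative to the median of all genes TRIB1 (0.86) and IER5 (0.73) were no longer past 2-fold. GADD45B is a stress-induced growth arrest protein, ID1 a helix-loop-helix inhibitor like ID2 and ID3, and IER5 a relative of IER2. In Arg- and Leu-, TRIB1 differed by -0.19 and -0.73, ID1 by -0.05 and 0.36, and IER5 by 0.22 and 0.47. With cycloheximide ID1 differed by 3.20 in Met-, -0.77 in Arg- and 0.54 in Leu-. Each value is from 1 library against 1 library.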
